A study of Mus musculus with 11 samples.

Results

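Motile cilium genes encode the parts of the beating cilia that line the conducting airways, and the factors that switch those parts on. The group described here held 43 genes, chosen by symbol as ciliogenesis transcription factors, axonemal dynein chains, radial spoke and central pair genes and other genes typical of multiciliated cells. All 43 were found among the 14700 genes of the deposited table, and all 43 had enough counts to be tested. The study measured polyadenylated RNA of whole lungs of C57BL/6 mice, 8 weeks old, on day 3 after instillation into the trachea. The saline group (6 libraries) received saline and the bleomycin group (5 libraries) received bleomycin at 3 U/kg, each in 50 µL. Bleomycin is a DNA-damaging agent used to injure the mouse lung. No genetic change is given in the labels for either group, and whether each library came from a separate animal is not stated there, so the p-values measure the spread between these libraries.

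A motile cilium is built on an axoneme, a ring of doublet microtubules around a central pair. Outer and inner dynein arms on the doublets slide them past each other, and radial spokes, the central apparatus and the nexin-dynein link coordinate that sliding into a beat. In the lung these cilia sit on multiciliated cells of the airways, where they move mucus. Foxj1 and the RFX factors are the transcription factors that drive their genes, and RFX proteins bind a DNA motif called the X-box.

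The promoters of a few members are shown because the RFX and forkhead motifs lie in them. The windows are from RefSeq, build GRCm38.p6, and run from 250 bases before to 50 bases after the transcript start, 5′ to 3′ on the gene's strand. The 2 RFX genes among the transcription factors were printed by rule, and Dnah10, Cfap44 and Sntn were chosen after their matches and their values were seen. Capitals mark the RFX core GTTGCC, read on either strand, and in Sntn also the forkhead core GTAAACA.
Rfx2 (chr17:56830959-56831258, minus strand): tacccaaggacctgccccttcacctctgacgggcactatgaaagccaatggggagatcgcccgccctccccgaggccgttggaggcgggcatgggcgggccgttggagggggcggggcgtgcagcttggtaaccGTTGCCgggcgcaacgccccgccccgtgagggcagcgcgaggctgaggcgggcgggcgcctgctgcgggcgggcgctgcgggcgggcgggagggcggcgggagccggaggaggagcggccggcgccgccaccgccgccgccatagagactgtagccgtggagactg
Rfx3 (chr19:28011117-28011416, minus strand): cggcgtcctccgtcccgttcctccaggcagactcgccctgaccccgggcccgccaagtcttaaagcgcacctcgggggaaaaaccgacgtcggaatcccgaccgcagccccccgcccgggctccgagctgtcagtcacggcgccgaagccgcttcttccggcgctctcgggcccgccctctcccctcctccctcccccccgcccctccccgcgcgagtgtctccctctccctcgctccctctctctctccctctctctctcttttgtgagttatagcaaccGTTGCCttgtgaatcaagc
Dnah10 (chr5:124724835-124725134, plus strand): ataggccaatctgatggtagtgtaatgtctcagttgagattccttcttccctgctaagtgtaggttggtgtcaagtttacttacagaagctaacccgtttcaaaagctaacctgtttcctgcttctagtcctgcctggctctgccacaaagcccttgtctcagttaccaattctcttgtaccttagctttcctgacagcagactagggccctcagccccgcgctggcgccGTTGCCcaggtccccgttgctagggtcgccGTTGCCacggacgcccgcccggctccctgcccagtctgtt
Cfap44 (chr16:44394549-44394848, plus strand): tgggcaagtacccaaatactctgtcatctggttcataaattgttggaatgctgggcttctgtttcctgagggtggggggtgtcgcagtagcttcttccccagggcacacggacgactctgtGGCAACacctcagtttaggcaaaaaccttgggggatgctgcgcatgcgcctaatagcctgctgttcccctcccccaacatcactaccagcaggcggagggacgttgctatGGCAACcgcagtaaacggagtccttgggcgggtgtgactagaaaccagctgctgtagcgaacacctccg
Sntn (chr14:13670626-13670925, plus strand): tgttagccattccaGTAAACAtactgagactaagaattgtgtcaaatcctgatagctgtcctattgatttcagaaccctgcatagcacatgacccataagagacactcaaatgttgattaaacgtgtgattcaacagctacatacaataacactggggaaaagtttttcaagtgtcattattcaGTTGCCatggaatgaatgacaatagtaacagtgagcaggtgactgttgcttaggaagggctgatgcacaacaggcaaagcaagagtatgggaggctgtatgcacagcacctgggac

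Relative to the transcript start, the RFX core began at -116 in Rfx2 and at 31 in Rfx3, at -20 and 10 in Dnah10, at -129 and -19 in Cfap44 and at -66 in Sntn. The forkhead core of Sntn began at -236. Windows were found for 35 of the 43 members, 40 windows in all. The remaining members, which are named only, were Foxj1, Dnai1, Dnai2, Dnah3, Rsph1, Rsph4a, Cfap53 and Tppp3. The RFX core GTTGCC was present in 19 of the 40 member windows (47.5%) and in 4111 of all 32851 windows of the same length (12.5%). By gene, 18 of the 35 members carried it. The forkhead core GTAAACA was present in 3 member windows (7.5%), those of Cfap43, Ak7 and Sntn, and in 1199 of all windows (3.65%). A strict palindromic form of the X-box was also searched, GTTNCC and GGNAAC with exactly 2 free bases between them, in which the RFX core can lie. It was found in 0 of the 40 member windows and in 148 of all windows. Forms with other spacing or with a mismatch were not searched, so an X-box of another form may be present. A match is a description of the letters in the window and not a binding site.

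Total counts ranged from 13226339 to 19009284 per library. Levels are given as CPM, read counts divided by the TMM-scaled library size, and levels of different genes are set against each other only as FPKM, which also divides by gene length. The labelled tissue was checked by its markers, and alveolar type 2, club cell and leukocyte markers were detected in every library. The airway markers differed widely between saline libraries. Scgb1a1, the secretory protein that defines club cells, had 132646 CPM in saline 1 and 146473 CPM in saline 4, but only 23055 CPM in saline 2 and 25989 CPM in saline 3. Saline 5 and 6 held 63361 and 76987 CPM of it. Leukocyte marker sums were 17135, 15714 and 14884 CPM in saline 2, 3 and 5 and between 4786 and 8046 CPM in the other 8 libraries. Saline 1 and 4 and saline 2 and 3 thus stood apart from each other. Estimates without them are given below for some members only, although the signs of 18 of the 43 changed without saline 1 and 4.

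No motile cilium gene passed the test between bleomycin and saline. By the quasi-likelihood test of edgeR, with p-values adjusted after Benjamini-Hochberg and a threshold of 0.05, 0 of 43 members rose and 0 fell, whereas 4.63% of all 14478 tested genes rose and 5.7% fell (671 and 825 genes, or 894 and 380 with total-count scaling in place of TMM). Before adjustment 4 of 43 members had p under 0.05, Dnah1, Dnah2, Rfx2 and Rsph4a, against 30% of all tested genes. DESeq2 called 2 members, as given below. Fitted log2 fold changes of bleomycin over saline were above 0 for 22 members and below 0 for 21 (29 and 14 with total-count scaling, 32 and 11 with limma on log2(FPKM + 1)), with a median of 0.00 beside -0.04 for all tested genes, and ran from -1.76 for Rsph4a to 1.02 for Dnah2. In CPM, 0 members had every bleomycin library above every saline library, and 0 had every one below, beside 3.99% and 4.41% of all tested genes. In whole lung, a level reflects both the number of ciliated cells and the RNA per ciliated cell, and the 2 cannot be told apart.

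**Figure D1:**
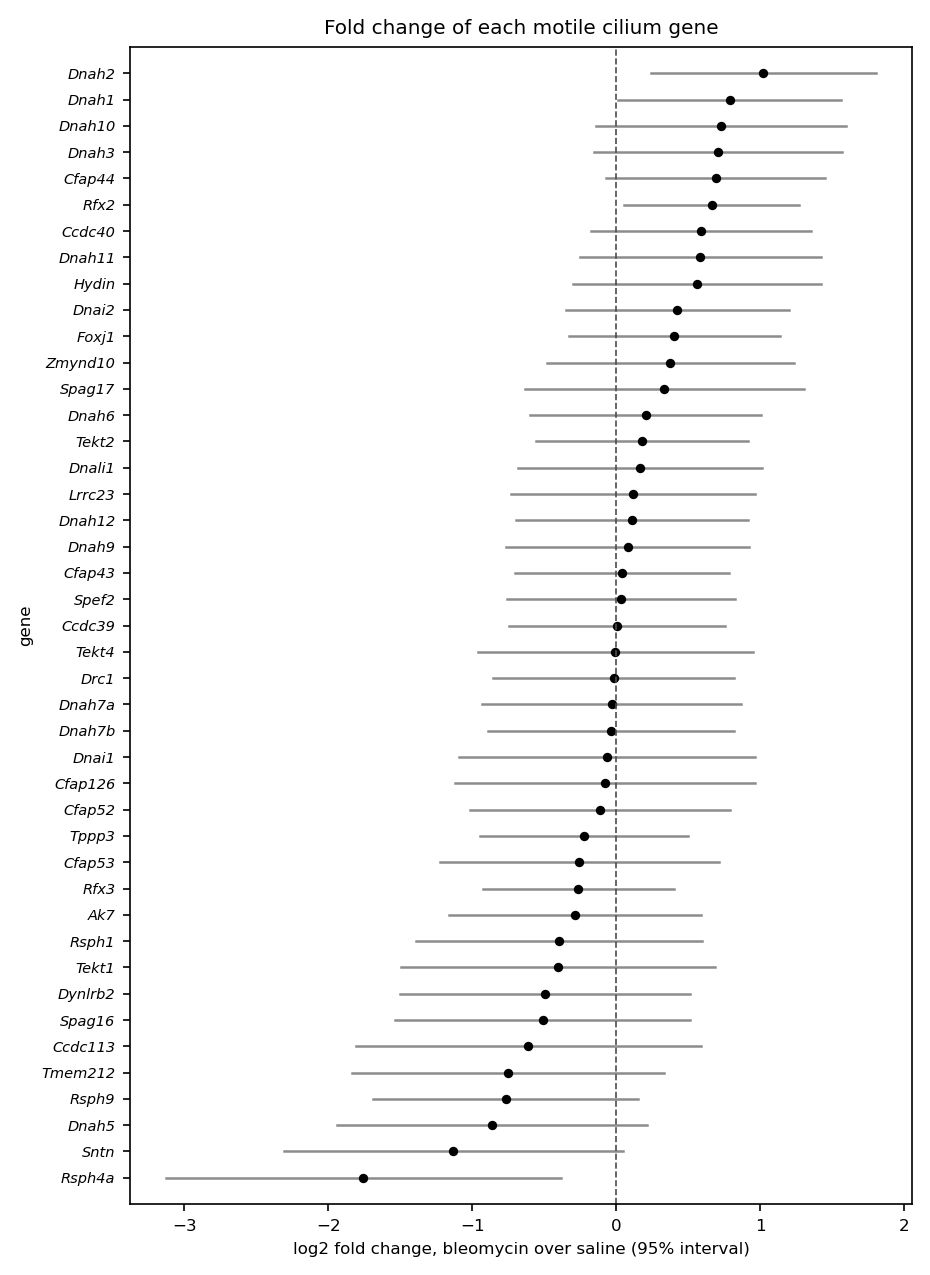
Log2 fold change of bleomycin over saline (x axis) for each of the 43 members (y axis, ordered by fold change), as points with 95% confidence intervals from edgeR as lines. The estimates run from -1.76 for Rsph4a to 1.02 for Dnah2, with 22 above 0 and 21 below (29 and 14 with total-count scaling), and no member passed the adjusted threshold.

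Before any comparison of groups, the members' levels set the libraries apart. The 43 members summed to 4101, 1240, 1203, 4385, 1790 and 2918 CPM over saline libraries 1 to 6, and over bleomycin libraries 1 to 5 to 2244, 2382, 3923, 1855 and 1893 CPM. Saline 1, saline 4 and bleomycin 3 were the 3 highest, saline 2 and 3 were the lowest, and the groups overlapped throughout. Taking each member relative to its own mean over the 11 libraries, the median member stood at 155% in saline 1, 47.0% in saline 2, 44.6% in saline 3, 159% in saline 4, 59.7% in saline 5 and 114% in saline 6. The corresponding medians were 88.2%, 102%, 158%, 84.1% and 78.7% in bleomycin 1 to 5.

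By the ratio of the highest to the lowest library, the spread within saline was wider than that within bleomycin for 42 of the 43 members. The share of all tested genes with a wider saline spread was not counted. Such a ratio tends to be larger over 6 libraries than over 5, and the members share the same libraries. The highest saline library exceeded the lowest by a median of 5.32-fold over the members, from 2.76-fold to 11.7-fold, beside a median of 2.13-fold over all tested genes. Across the bleomycin libraries the same ratio had a member median of 2.15-fold, from 1.54-fold to 3.56-fold, beside 1.69-fold for all tested genes. Within saline, the highest library was saline 4 for 25 members, saline 1 for 9 and saline 6 for 9, and the lowest was saline 3 for 25, saline 2 for 9 and saline 5 for 9. Within bleomycin, library 3 was the highest for 40 of 43 members.

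**Figure D2:**
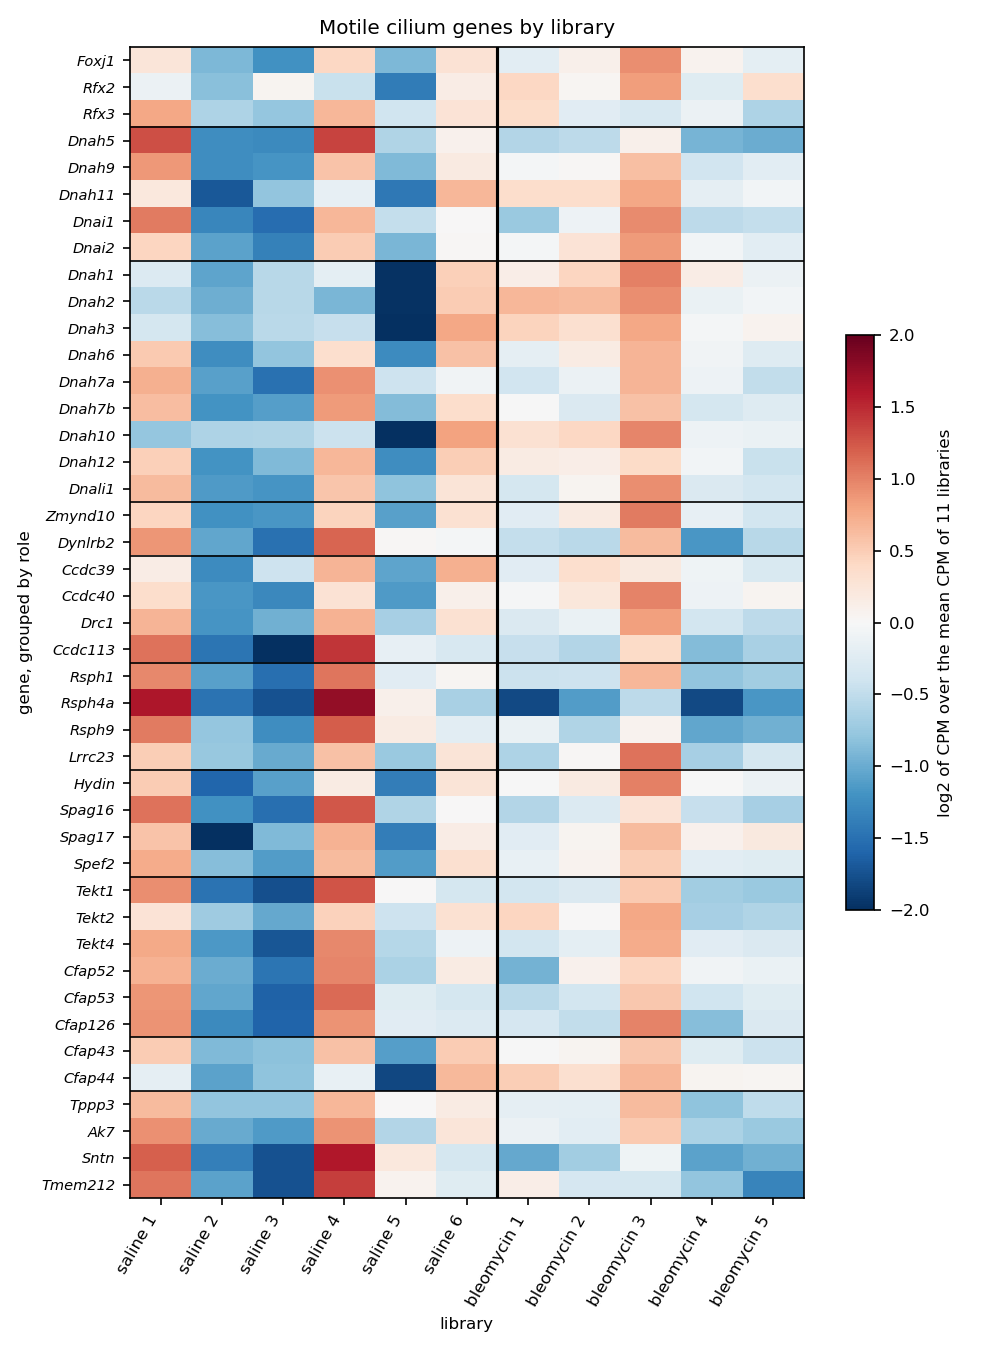
Level of each of the 43 members (rows, grouped by role) in each of the 11 libraries (columns), as log2 of CPM relative to the member's mean, with colours that end at -2 and 2. Saline 1, saline 4 and bleomycin 3 are high and saline 2 and 3 low across most rows. Saline 6 is the highest saline library for 9 members, among them Dnah2, Dnah3 and Dnah10, for which saline 1 and 4 lie below the member's mean.

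Sums of the 16 club and secretory cell markers were highest in 2 of the same libraries, saline 1 and 4, with 172802 and 185506 CPM. In saline 2 and 3 they were 30593 and 32741 CPM. In bleomycin 1 to 5 they were 79694, 56502, 70365, 33510 and 22164 CPM, so that libraries 1, 2 and 3 were the higher ones and 4 and 5 the lower ones for both lists. Bleomycin 3 was the highest for the cilium genes and the second highest for the club and secretory markers. The sums of these 16 markers ranged from 30593 to 185506 CPM in saline and from 22164 to 79694 CPM in bleomycin. Scgb1a1 alone gave 132646 of the 172802 CPM in saline 1 and 146473 of the 185506 CPM in saline 4. The sum thus largely follows that gene. Of the 16, 3 fell (Scgb3a1, Reg3g and Muc5b), beside 5.7% of all tested genes. Scgb3a2, Cyp2f2, Cbr2 and Aldh1a7 of the same list did not pass (adjusted p = 0.149, 0.431, 0.681 and 0.337, edgeR). Scgb1a1 had a log2 fold change of -0.99 ± 0.690 (SE; adjusted p = 0.351, edgeR). Leukocyte sums were high in saline 2, 3 and 5, the 3 saline libraries in which the cilium genes were low. Much of each sum was Lyz2, with 12172 of 14884 CPM in saline 5 and 7043 of 8046 CPM in bleomycin 3. Ptprc read 512, 445 and 316 CPM in saline 2, 3 and 5, beside 274, 143 and 227 CPM in saline 1, 4 and 6. In bleomycin 3, which had the highest bleomycin sum, Ptprc and Cd52 were at their lowest, at 54.8 and 25.6 CPM. Of the 10 leukocyte markers 2 fell (Ptprc and Cd52), beside the same 5.7% of all tested genes. The part of sampled airway or of leukocytes in the members' levels was not tested.

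**Figure D3:**
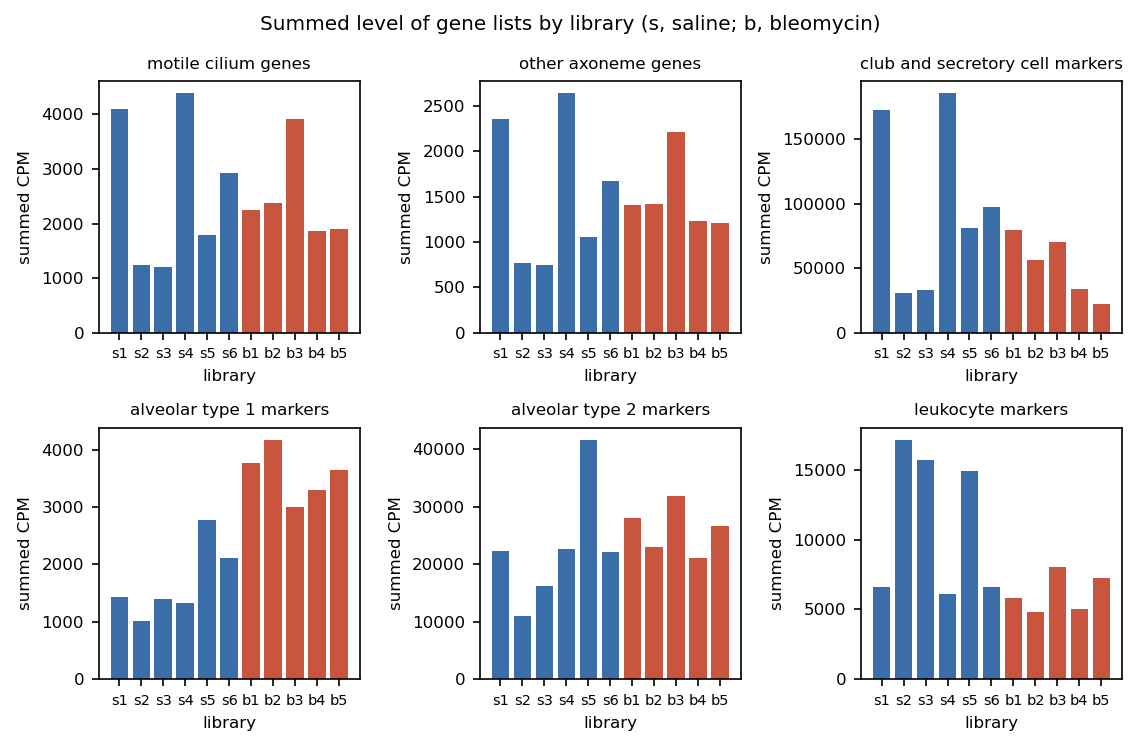
Summed CPM (bars, y axes from 0) in each library (x axes; s, saline; b, bleomycin) for the motile cilium genes, other axoneme genes and marker lists of other lung cells. Saline 1 and 4 are high for both the cilium genes (4101 and 4385 CPM) and the club and secretory markers (172802 and 185506 CPM). Bleomycin 3 is near them for the cilium genes (3923 CPM) and well under them for the club and secretory markers (70365 CPM).

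Of the 3 transcription factors, 0 passed the adjusted threshold. Foxj1, the forkhead factor that starts the motile cilium programme, stood at 202, 91.9, 73.8, 228, 92.3 and 208 CPM in saline 1 to 6 and at 148, 184, 327, 179 and 149.8 CPM in bleomycin 1 to 5. Only bleomycin 3 exceeded all saline libraries, and no bleomycin library lay under saline 2, 3 or 5. Its log2 fold change was 0.40 ± 0.337 (SE; adjusted p = 0.439, edgeR), from a mean of 149.4 ± 70.4 CPM (SD, n = 6) to 198 ± 74.0 CPM (SD, n = 5). On log2(FPKM + 1), where the means were 5.63 and 6.28, an exact two-sided permutation test over all 462 splits gave a difference of 0.65 and p = 0.106, with 0.00216 the smallest p possible.

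Rfx2, an X-box binding factor, read 18.5, 11.2, 20.9, 14.8, 7.58 and 22.2 CPM in saline 1 to 6 and 26.8, 20.7, 35.8, 17.0 and 25.3 CPM in bleomycin 1 to 5. Of the bleomycin libraries, 3 lay above every saline library, and the other 2 lay within their range. The log2 fold change of Rfx2 was 0.66 ± 0.280 (SE), with a 95% interval from 0.06 to 1.27 that leaves out 0 and an adjusted p of 0.137 (edgeR). Rfx3, a second factor of that family, read 38.7, 14.9, 13.3, 36.0, 17.2 and 27.5 CPM in saline and 29.3, 19.5, 18.2, 20.9 and 14.9 CPM in bleomycin, which all lay between the lowest and highest saline values. Its log2 fold change was -0.26 ± 0.304 (SE; adjusted p = 0.587).

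**Figure D4:**
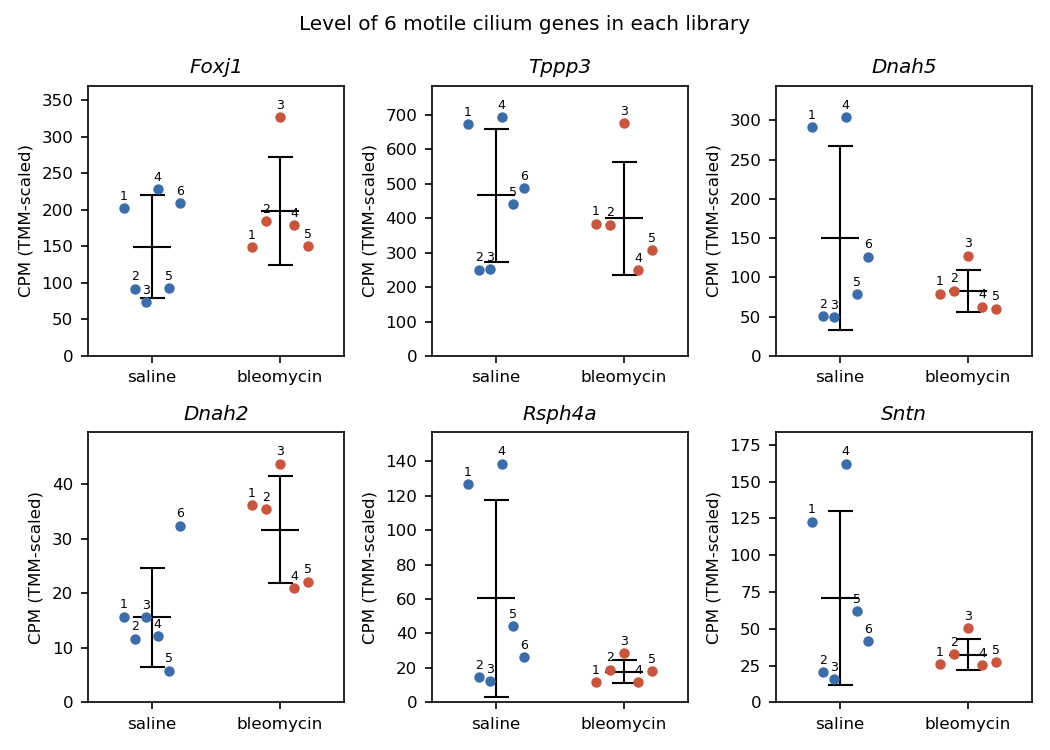
CPM of 6 members in each library (points with library numbers, saline n = 6 and bleomycin n = 5), with the group mean and SD as bars. The groups overlap in every panel, with saline 1 and 4 the highest saline points for Rsph4a (127 and 139 CPM) and Sntn (123 and 162 CPM) and saline 6 the highest for Dnah2 (32.5 CPM).

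The outer arm chains, 5 members, had log2 fold changes from -0.86 to 0.58, and 0 passed the test. Dnah5, the heavy chain most often mutated in human primary ciliary dyskinesia, had the highest FPKM of the 5. It stood at 291, 50.7, 49.7, 304, 78.7 and 126 CPM in saline 1 to 6 and at 79.5, 83.0, 127, 62.7 and 60.3 CPM in bleomycin 1 to 5. The bleomycin values lay inside the wide saline range, between the level of saline 2 and 3 and that of saline 1 and 4. Its log2 fold change was -0.86 ± 0.494 (SE; adjusted p = 0.256). With saline 1 and 4 left out the estimate was 0.13 (adjusted p = 0.824). The other heavy chains, Dnah9 and Dnah11, had log2 fold changes of 0.08 and 0.58 (adjusted p = 0.909 and 0.324). The intermediate chains, which anchor the arm, had -0.06 (Dnai1) and 0.43 (Dnai2).

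Of the 9 inner arm chains 7 had estimates above 0 and 0 passed the test, with a median log2 fold change of 0.20. Dnah2, a heavy chain of the double-headed inner arm, read 15.7, 11.7, 15.6, 12.2, 5.82 and 32.5 CPM in saline 1 to 6 and 36.2, 35.4, 43.8, 21.0 and 22.2 CPM in bleomycin 1 to 5. Every bleomycin library exceeded 5 of the 6 saline libraries, and saline 6 lay above bleomycin 4 and 5. Dnah2 thus had a log2 fold change of 1.02 ± 0.361 (SE), with a 95% interval from 0.24 to 1.81 and an adjusted p of 0.0874 (edgeR). Saline 6 was the highest saline library for 5 of the 9 inner arm chains, and saline 5 the lowest for 6 of them.

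Dnah10, the partner of Dnah2 in that arm, read 29.7, 33.1, 33.6, 37.9, 11.6 and 89.0 CPM in saline and 63.0, 67.5, 100.5, 47.3 and 46.5 CPM in bleomycin. Dnah3, a single-headed inner arm chain, read 41.1, 29.1, 35.9, 38.1, 10.1 and 89.1 CPM in saline and 71.4, 65.0, 89.3, 50.6 and 54.7 CPM in bleomycin. In both genes all 5 bleomycin libraries lay above saline 1 to 5, and saline 6 lay above every bleomycin library but library 3. Their log2 fold changes were 0.73 ± 0.399 and 0.71 ± 0.395 (SE; adjusted p = 0.237 and 0.245), and Dnah1 had 0.79 ± 0.356 (adjusted p = 0.160).

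Dnali1, the light intermediate chain and the inner arm member with the highest FPKM, read 81.4, 24.0, 23.3, 77.7, 30.2 and 63.1 CPM in saline and 41.4, 54.4, 100.04, 42.95 and 40.8 CPM in bleomycin, so the groups overlapped. Its log2 fold change was 0.16 ± 0.390 (adjusted p = 0.808). Dnah6 and Dnah12 had 0.20 and 0.11. Dnah7a and Dnah7b had -0.03 and -0.04 and are uncertain, since in the GENCODE M21 transcripts they and Dnah7c share between 30.3% and 38.8% of their 50-base stretches, so reads could be split between copies.

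The genes for dynein assembly and transport were Zmynd10, a cytoplasmic assembly factor of the dynein arms, and Dynlrb2, a dynein light chain. Dynlrb2 read 172, 45.5, 33.4, 208, 94.5 and 91.4 CPM in saline and 67.1, 64.6, 145, 41.6 and 63.9 CPM in bleomycin, within the saline range in all 5. The fitted log2 fold change was -0.49 ± 0.463 (adjusted p = 0.496), and that of Zmynd10 was 0.38 (adjusted p = 0.547).

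The ruler and nexin-dynein link genes set the spacing of the arms and tie neighbouring doublets, and 0 of 4 passed. Ccdc113, a coiled-coil protein of the axoneme, had the highest FPKM of them and read 105, 17.9, 11.4, 133, 44.1 and 39.2 CPM in saline and 35.8, 32.9, 64.0, 27.0 and 31.4 CPM in bleomycin. Its saline 4 value exceeded its saline 3 value by 11.7-fold, the widest such ratio among the members, while bleomycin values stayed in the middle of that range. The log2 fold change was -0.61 ± 0.5503 (adjusted p = 0.475). Those of Ccdc39, Ccdc40 and Drc1 were 0.00, 0.59 and -0.02.

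The radial spoke genes included the member with the lowest estimate. Rsph4a, a spoke head protein, read 127, 14.8, 12.4, 139, 44.3 and 26.3 CPM in saline 1 to 6 and 11.8, 18.98, 28.5, 11.8 and 18.3 CPM in bleomycin 1 to 5. All bleomycin libraries lay far under saline 1 and 4 and level with saline 2, 3 and 6. The log2 fold change was -1.76 ± 0.632 (SE), with a 95% interval from -3.13 to -0.39 and an adjusted p of 0.0916 (edgeR). Without saline 1 and 4 it was -0.42 (adjusted p = 0.532). Means were 60.5 ± 57.2 CPM (SD, n = 6) and 17.9 ± 6.85 CPM (SD, n = 5).

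Rsph1, the spoke gene with the highest FPKM, read 184, 44.7, 33.4, 200.1, 81.3 and 97.2 CPM in saline and 70.4, 71.2, 150.2, 54.8 and 58.8 CPM in bleomycin, with overlap (log2 fold change -0.40 ± 0.457, adjusted p = 0.583). Rsph9, another head protein, had -0.77 (adjusted p = 0.240). Lrrc23, a spoke protein, had 0.12 (adjusted p = 0.863). Over the 4 spoke genes the median was -0.58, with 3 estimates below 0.

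The central apparatus genes, 4 members, had a median log2 fold change of 0.18 and 0 passed. Spag16, a central pair protein with the highest FPKM of the 4, read 102, 20.6, 16.8, 112, 31.6 and 48.0 CPM in saline and 31.7, 39.6, 57.7, 34.8 and 30.0 CPM in bleomycin. Bleomycin values again lay between the low and the high saline libraries, with a log2 fold change of -0.51 ± 0.471 (adjusted p = 0.486). Hydin, Spag17 and Spef2 had 0.56, 0.34 and 0.03.

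The 6 genes of the doublet lumen and wall, tektins and proteins bound inside the microtubules, had estimates from -0.40 to 0.18. Cfap126, one of these inner proteins, read 138, 30.7, 24.4, 138, 63.5 and 61.0 CPM in saline and 58.5, 52.7, 147, 41.2 and 60.7 CPM in bleomycin. Bleomycin 3 lay at the level of saline 1 and 4, with an estimated log2 fold change of -0.08 ± 0.479 (adjusted p = 0.932). The others were Tekt1 at -0.40, Tekt2 at 0.18, Tekt4 at -0.01, Cfap52 at -0.11 and Cfap53 at -0.26.

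Cfap43 and Cfap44 form the tether of the double-headed inner arm. Cfap43 read 115, 44.1, 46.2, 122, 37.8 and 116 CPM in saline and 81.0, 84.3, 118, 68.3 and 60.5 CPM in bleomycin (log2 fold change 0.04 ± 0.343, adjusted p = 0.949). Cfap44 read 47.0, 25.1, 30.5, 48.0, 15.1 and 83.1 CPM in saline and 74.7, 65.9, 84.4, 55.0 and 54.7 CPM in bleomycin. As in Dnah10, every bleomycin library lay above saline 1 to 5, and saline 6 lay above all but bleomycin 3. The log2 fold change was 0.69 ± 0.349 (SE; adjusted p = 0.204).

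The remaining members, Tppp3, Ak7, Sntn and Tmem212, had estimates below 0 in 4 of 4 and 0 passed. Tppp3, a tubulin polymerization promoting protein, had the highest mean FPKM of all members, 132 FPKM, beside 111 for Tmem212, 86.2 for Dynlrb2 and 65.5 for Foxj1. It read 673, 251, 251, 694, 441 and 487 CPM in saline and 385, 382, 676, 249 and 307 CPM in bleomycin (log2 fold change -0.22 ± 0.333, adjusted p = 0.680). At the other end, Dnah7b, Rfx3 and Dnah2 had mean levels of 0.422, 0.718 and 0.738 FPKM.

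Sntn, which encodes sentan of the ciliary tip, read 123, 20.7, 15.96, 162, 62.0 and 41.8 CPM in saline and 26.2, 32.9, 50.3, 25.3 and 27.3 CPM in bleomycin. Bleomycin lay above saline 2 and 3 in all 5 libraries and under saline 1, 4 and 5. Its log2 fold change was -1.13 ± 0.541 (SE), with a 95% interval from -2.31 to 0.05 and an adjusted p of 0.182. Without saline 1 and 4 the estimate was -0.09 (adjusted p = 0.910). Tmem212, a transmembrane protein gene, had -0.75 (adjusted p = 0.327), and Ak7, an adenylate kinase, had -0.29 (adjusted p = 0.660).

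Which members were called differed with the saline libraries in the fit. Within saline, the highest library was saline 4 for 25 members and saline 1 for 9, and the lowest was saline 3 for 25 and saline 2 for 9. Leaving out either pair therefore moves most estimates in a direction set by those levels. The directions in these fits are thus not separate evidence. Without saline 6 alone, 4 members rose: Dnah2 by a log2 fold change of 1.37 (adjusted p = 0.0154), Dnah10 by 1.15 (0.0346), Dnah3 by 1.10 (0.0436) and Cfap44 by 1.01 (0.0413), while 0 fell, where 6.81% of all tested genes rose and 7.9% fell. Without saline 2 and 3, 5 members fell: Rsph4a with -2.23 (adjusted p = 0.0121), Sntn with -1.59 (0.0174), Dnah5 with -1.28 (0.0379), Tmem212 with -1.18 (0.0405) and Rsph9 with -1.14 (0.0325), while 0 rose, where 9.22% of all tested genes rose and 9.97% fell. In that fit 31 of 43 estimates were below 0, with a median of -0.28. Without saline 1 and 4, 40 of 43 estimates were above 0 with a median of 0.59, beside 0.02 for all tested genes, and 0 members were called, while 1.97% of all tested genes rose and 4.07% fell. There the log2 fold changes of the same 5 genes were -0.42 for Rsph4a, -0.09 for Sntn, 0.13 for Dnah5, 0.16 for Tmem212 and -0.03 for Rsph9 (adjusted p from 0.532 to 0.966). DESeq2 on all libraries called Dnah2 (1.03, adjusted p = 0.0361) and Rsph4a (-1.77, adjusted p = 0.0205), where 8.63% of all tested genes rose and 11.2% fell. The fit with the replicate number as a block also leaves out saline 6, whose number no bleomycin library has. In it 1 member rose, Dnah2 (1.40, adjusted p = 0.0263), and 0 fell, with a member median of 0.26, where 1.84% of all tested genes rose and 1.67% fell. Over all 22 fits that held it, the adjusted p of Dnah2 ran from 0.0154 to 0.220 and its estimate stayed above 0. That of Rsph4a ran from 0.0121 to 0.532 over 23 fits, with every estimate below 0.

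Members with long transcripts had higher estimates than the others. The 12 members with a transcript of at least 10000 bases had a median log2 fold change of 0.38, beside 0.08 for the 364 such genes among all tested, and the 31 shorter members had -0.06 beside -0.04. The long members were the dynein heavy chains and Hydin, so among the members length and heavy chain class cannot be told apart. The longest of them, Hydin (15783 bases) and Dnah5 (15637 bases), had 0.56 and -0.86. Across the 43 members, the log2 fold change correlated with transcript length at Spearman's rho = 0.53 and with GC content at 0.35. Across all 14458 genes with both values rho was 0.14 and 0.40. These are correlations across genes, which share the libraries and are not independent replicates. When each library's trend on GC content and length was removed, a correction added after the data were seen, 0 members were called, beside 2.05% of all tested genes that rose and 3.35% that fell. Under that correction Dnah2 had a log2 fold change of 0.65, Rsph4a -1.48, Sntn -0.43, Rfx2 0.24 and Foxj1 -0.17.

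**Figure D5:**
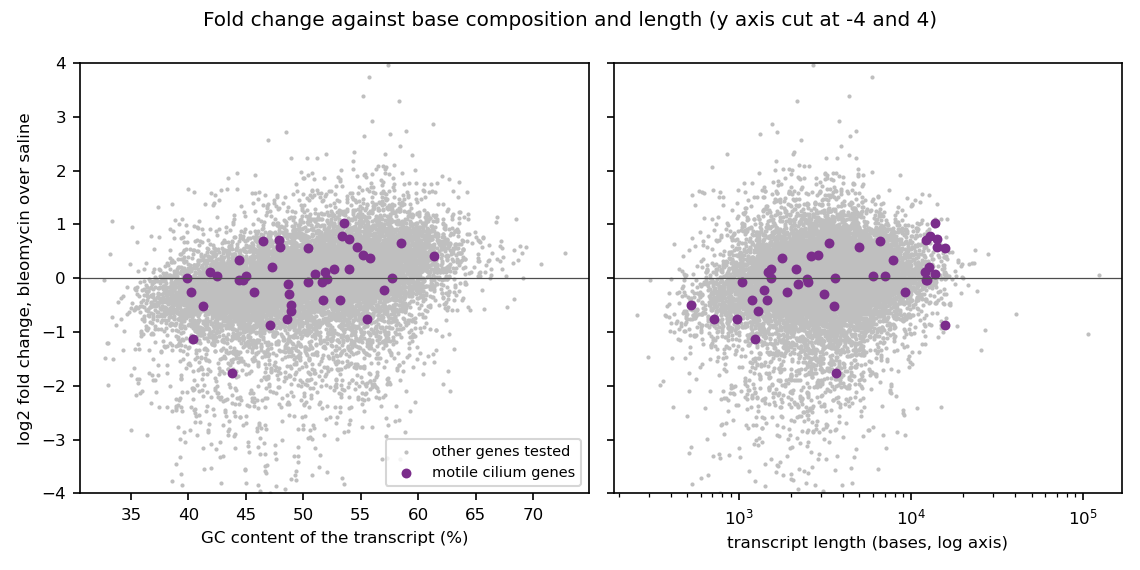
Log2 fold change of bleomycin over saline (y axis) against GC content in percent and against transcript length in bases on a log axis (x axes), for the other tested genes (grey) and the 43 members (purple), with the y axis cut at -4 and 4. The members of at least 10000 bases, which are the dynein heavy chains and Hydin, sit mostly above 0 (median 0.38). The shorter ones spread on both sides (median -0.06).

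Each member was also scaled to Foxj1 in the same library, a description added after the data were seen. Of the other 42 members, 4 had every bleomycin library below every saline library, namely Dnah5, Rsph4a, Spag16 and Sntn, beside 2.56% of all genes scaled the same way, and 0 had every one above, beside 0.0553%. Rsph4a stood at 62.8%, 16.1%, 16.8%, 60.7%, 48.0% and 12.6% of the Foxj1 level in saline 1 to 6 and at 7.97%, 10.3%, 8.72%, 6.59% and 12.2% in bleomycin 1 to 5, so the gap to the lowest saline library was narrow. For Sntn the ratio was 20.0% to 71.0% in saline and 14.1% to 18.2% in bleomycin. The lowest saline ratio was in saline 6 for Rsph4a and Sntn and in saline 2 for Dnah5 (55.2%) and Spag16 (22.4%). The highest bleomycin ratios, 53.5% for Dnah5 and 21.5% for Spag16, were close below. Saline 1 and 4 thus did not set the gaps. In the fit without them Foxj1 had a log2 fold change of 0.78, beside -0.42 for Rsph4a, -0.09 for Sntn and 0.13 for Dnah5. In the fit on all libraries Foxj1 had 0.40, beside -1.76 for Rsph4a, -1.13 for Sntn, -0.86 for Dnah5 and -0.51 for Spag16, and none of them passed. A lower ratio can come from a lower gene or a higher Foxj1, and which of these applied was not tested. These CPM ratios compare a gene with itself across libraries, and since Foxj1 is in every ratio, its own spread enters all of them.

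Other genes of the same structures, from lists chosen with earlier results known, were counted the same way, and over all tested genes 4.63% rose and 5.7% fell. Of 17 tested genes of multiciliation and centriole amplification 0 rose and 0 fell, with a median log2 fold change of -0.01. Dynein arm assembly and docking factors had 0 of 21 in either direction and a median of -0.39. Of 63 other axoneme genes 1 rose, and of 50 other ciliated cell markers 1 rose. Pooled with the multiciliation and assembly lists, these made 151 genes, of which 2 rose and 0 fell, with a median of -0.05.

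The gene that rose among the axoneme genes was Tekt5, a tektin known from sperm flagella. It read 1.09, 0.560, 0.946, 0.952, 2.91 and 1.56 CPM in saline 1 to 6 and 3.39, 7.09, 5.77, 4.02 and 7.03 CPM in bleomycin 1 to 5. The groups did not overlap, and saline 1 and 4 were not its high libraries. Among the members, the highest saline library was saline 4 for 25 and saline 1 for 9, but saline 6 for the other 9. It rose by a log2 fold change of 2.03 ± 0.395 (SE; adjusted p = 0.0113, edgeR), with adjusted p from 1.53e-05 to 0.0417 over all 23 fits. Tubb4a, a beta tubulin also known from neural cells, rose by 1.48 ± 0.393 (adjusted p = 0.0356) from a mean of 6.17 ± 2.77 CPM (SD, n = 6) to 17.2 ± 8.14 CPM (SD, n = 5), and passed in 11 of 23 fits.

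Genes that motile cilia share with primary cilia were counted beside the 4.63% of all tested genes that rose and the 5.7% that fell. Among the 42 genes of intraflagellar transport and the BBSome, which carry cargo along cilia, 0 rose and 1 fell, Bbip1 (log2 fold change -0.59 ± 0.159, adjusted p = 0.0376, past the threshold in 10 of 23 fits). Of 22 ciliary gate genes 1 rose, Nphp4 (0.85 ± 0.249, adjusted p = 0.0488, past it in 9 of 22 fits), and 0 fell. The medians of these lists were -0.11 and 0.01.

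For other cells of the airway and lung, 1 of 5 tested basal cell markers fell (Aqp3), and 0 of 7 neuroendocrine and tuft cell, 0 of 2 airway cartilage and 0 of 7 smooth muscle markers passed in either direction. Alveolar type 1 markers had 3 of 7 that rose (Col4a3, Ager and Aqp5) and alveolar type 2 markers 2 of 8 (Sftpb and Abca3). Over all tested genes 4.63% rose and 5.7% fell, and these lists are short. The median log2 fold changes were -0.88 for club and secretory, -1.67 for basal, -0.62 for neuroendocrine and tuft and -0.78 for cartilage markers. They were 0.29 for smooth muscle, 0.57 for alveolar type 1, 0.33 for alveolar type 2 and -1.42 for leukocyte markers, beside 0.00 for the motile cilium genes. Whether these shifts bear on the members' levels was not tested.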

How the data were processed

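The authors deposited 1 table with whole-number read counts, not normalized, and FPKM values (scaled to gene length and library size), each for 11 libraries. Tools named in the submitters' processing notes are FastQC, HISAT2 2.2.1, HTSeq 2.0.2, and the build is GRCm39. Which annotation was counted, and with which strand setting, is not given there or in the labels. Per the labels' protocols the libraries mark strand with dUTP. In GENCODE M21, 15 members have exons that overlap exons of a gene on the opposite strand, by up to 20.8% of their exon bases, and their counts are uncertain to that extent.

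The 43 members and all lists were chosen with earlier results of these data known. Library values were given for the transcription factors and, in each role, for the member with the highest FPKM. Values of Dnah2, Dnah10, Dnah3, Rsph4a, Cfap44, Sntn, Tekt5 and Tubb4a were added after they were seen or by the rule for genes past the threshold.

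From the counts, edgeR 4.0.16 (R 4.3.3; filterByExpr minimum 10, TMM) compared 5 bleomycin with 6 saline libraries by the two-sided quasi-likelihood test, Benjamini-Hochberg adjusted over 14478 genes at 0.05. The biological coefficient of variation was 36.5%. SEs are approximate, taken from each log2 fold change and its test statistic. DESeq2 1.42.0, limma 3.58.1 on log2(FPKM + 1) or log2(FPKM + 0.1), other scalings and filters, a block by number and left-out libraries were the alternatives. The closest libraries, saline 1 and 4, differed by more than sampling noise (chi-square 17.5 per degree of freedom), so none was counted as a second reading of the same library. Saline 2 and 3 were next at 25.6. The other saline pairs ran from 107 to 462 and the bleomycin pairs from 36.9 to 133. These values cannot tell whether libraries came from the same lung, so the saline group may hold fewer than 6 independent units.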

Additional observations from a re-analysis of the deposited data

Results flagged for a closer look

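A test for a single library far from the others of its group (Dixon's test at 95%) was run on CPM for the 43 members in both groups, 86 tests in all, and picked out 18 values, all of them high. Chance alone flags about 1 in 20 groups, and the members move together across libraries, so the 18 are not separate events. Of these, 16 were bleomycin 3. In that library Foxj1 stood at 327 CPM (next highest 184), Dnai1 at 41.2, Dnah7a at 22.3, Dnali1 at 100.04, Zmynd10 at 37.1, Dynlrb2 at 145, Ccdc40 at 105.6 and Drc1 at 73.2 CPM. Ccdc113 stood at 64.0, Rsph1 at 150.2, Lrrc23 at 166, Hydin at 75.9, Tekt1 at 66.8, Tekt4 at 43.8, Cfap53 at 44.1 and Cfap126 at 147 CPM there. Saline 6 was picked out for Dnah2, at 32.5 CPM beside 15.7 for the next saline library, and for Dnah10, at 89.0 CPM beside 37.9.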

How the results depend on the processing

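Of all tested genes, 671 rose and 825 fell. The counts were 1249 and 1615 by DESeq2, 1022 and 346 by limma on log2(FPKM + 1), 265 and 241 with the replicate block, 1335 and 1443 without saline 2 and 3, 297 and 484 with the GC and length correction and 113 and 134 at a threshold of 0.01. The number that fell was 380 with total-count scaling and 378 with limma on log2(FPKM + 0.1), and 286 rose without saline 1 and 4. Leaving out each library in turn gave 264 (without bleomycin 2) to 981 (without saline 6) that rose and 293 to 1137 that fell. Members: 1 rose and 1 fell by DESeq2, 1 rose with the replicate block (which also leaves out saline 6), 0 to 4 rose on leaving out one library, and 5 fell without saline 2 and 3. The other fits called 0. Of the 151 other motile cilium genes, where 2 rose and 0 fell, 6 rose by DESeq2, 5 with the replicate block, 1 to 14 on leaving out one library, 1 without saline 1 and 4, 1 with the GC and length correction and 0 at 0.01, and 17 fell without saline 2 and 3.

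The member median ran from -0.21 (without bleomycin 3) to 0.21 (without saline 1) on leaving out one library. It was 0.22 with total-count scaling and 0.23 and 0.33 with limma, where the median of all tested genes was itself 0.14, 0.08 and 0.15. Equal numbers did not pair the libraries: the deviations of same-numbered libraries correlated between -0.19 and 0.00, and 0 saline libraries correlated best with their own number. Without saline 1 and 4, in which most members were high, signs of 18 members changed and only Rsph4a, Sntn and Rsph9 stayed below 0. Over 23 fits the estimates ran from -1.07 to 0.47 for Ccdc113, from -0.92 to 0.43 for Spag16 and from -0.84 to 0.50 for Tekt1. They ran from -0.80 to 0.36 for Rsph1 and from -0.89 to 0.23 for Dynlrb2. The cause of these differences was not tested. The members spread by a median of 5.32-fold within saline, and the SE of their log2 fold changes ran from 0.28 to 0.63.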
